A study of Sus scrofa with 34 samples.

Results

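The genes described here make, move and sense cholesterol. They were chosen by role from a list of 31 named genes, and 30 of them were found among the 25880 genes of the count tables; PMVK was not matched to an identifier there and is not analysed here. The 30 genes fall into 5 roles. These include 7 enzymes of the mevalonate pathway, 12 enzymes from squalene to cholesterol and 4 genes of sterol sensing. The other roles are 3 carriers of sterol inside the cell and 4 transporters of absorption and efflux. The 4 genes of sensing are SCAP, INSIG1, INSIG2 and SREBF2, which encodes a transcription factor. All 30 passed the filter on low counts in the liver, and 29 passed it in the ileum, where TM7SF2 did not.

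Cholesterol is built from acetyl-CoA through mevalonate, isoprenoid units, squalene and lanosterol, and the liver is a main site of this synthesis. When sterol in the membrane of the endoplasmic reticulum is low, SCAP escorts the precursor of SREBP2, the product of SREBF2, to the Golgi, where it is cut to release a transcription factor that binds sterol regulatory elements in the promoters of the synthesis genes. When sterol is high, INSIG1 and INSIG2 hold SCAP in place, and INSIG1 is itself a target of SREBP2. NPC1L1 takes up cholesterol at the brush border of enterocytes, ABCG5 and ABCG8 pump sterols back into the gut lumen or into bile, and ABCA1 passes cholesterol to apolipoprotein A-I. NPC1 and NPC2 release cholesterol from lysosomes, and STARD4 carries it between membranes.

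The samples came from crossbred weaned piglets of both sexes on day 28 of feeding. Liver was sampled from 6 pigs on each of 4 diets, namely a basal diet (control), the basal diet with a phytogenic feed additive (PFA, a mix of oregano and caraway oils with carvacrol, methyl salicylate and menthol), the diet with added oxidized rapeseed oil (OO), and the diet with both (OO+PFA). Ileum was sampled from 5 control pigs and 5 PFA pigs, which are also among the liver pigs by their numbers. All pigs of a diet shared 1 pen, which makes pen and diet inseparable, and the oil diets held more fat than the basal diet, so the amount of oil and its oxidation cannot be told apart.

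Depth was 18.7 to 42.4 (in units of 1e6 read pairs on genes) in the liver and 18.8 to 24.3 in the ileum. The OO+PFA library of pig 77, in which multi-mapped pairs reached 36.6 per 100 pairs on genes, was left out, as 1 library of that diet was in the study; 23 liver libraries were fitted. The labelled tissues showed their markers: 6 hepatocyte genes summed to 92709 to 207430 CPM (read pairs per 1e6, scaled by TMM) in the liver, where 5 enterocyte genes summed to 257 to 916 CPM with FABP2 and SI at 3 counts or fewer a library. The 5 enterocyte genes summed to 13647 to 22013 CPM in the ileum, where the 6 hepatocyte genes summed to 1131 to 3847 CPM with AHSG, SERPINA1 and TTR at 3 counts or fewer. In bulk tissue, fewer cells of a type and less RNA per cell cannot be told apart. The share of read pairs on no gene was 11.2 to 18.4% in control livers and 6.83 to 13.6% in the livers of the other diets. Liver libraries also differed in how the level of a gene moved with its GC content, the percent of G and C in its exons: the slope of log2 CPM against GC, relative to the mean library, was above 0 in 2 of 6 control, 2 of 6 PFA, 3 of 6 OO and 5 of 5 OO+PFA livers.

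Promoters are shown for 5 of the genes described in full here, taken in order of p across the liver diets among those whose upstream DNA held one of the motifs searched (the windows of SCAP and NPC1L1 held none), because SREBP2 acts with the factor NF-Y at sterol regulatory elements and CCAAT boxes in such promoters. For 28 of the 30 genes, the 250 bases before the RefSeq gene start were read from Sscrofa11.1 and searched on both strands for the letters TCANNCCAC, a short form of the sterol regulatory element, and for CCAAT, which reads ATTGG on the other strand. TCANNCCAC was found before 5 of the 28 genes (17.9%, FDFT1, HMGCS1, MSMO1, SQLE and SREBF2), against 2.96% of 13657 promoters of the same length, and CCAAT before 18 of 28 (64.3%) against 31.7%. The windows of ABCG5 and ABCG8 overlap, since both genes start from the same stretch of chromosome 3 and run apart. The following sequences run 5′ to 3′ on the strand of the gene, with both motifs in capitals. EBP (ENSSSCG00000032768, plus strand) lies at chrX:42670342-42670591, MVD (ENSSSCG00000034905, plus strand) at chr6:1007850-1008099, INSIG1 (ENSSSCG00000016420, minus strand) at chr18:2898759-2899008, MVK (ENSSSCG00000009931, minus strand) at chr14:41357438-41357687, and SREBF2 (ENSSSCG00000026092, minus strand) at chr5:6784725-6784974; these coordinates are those of the windows.
EBP: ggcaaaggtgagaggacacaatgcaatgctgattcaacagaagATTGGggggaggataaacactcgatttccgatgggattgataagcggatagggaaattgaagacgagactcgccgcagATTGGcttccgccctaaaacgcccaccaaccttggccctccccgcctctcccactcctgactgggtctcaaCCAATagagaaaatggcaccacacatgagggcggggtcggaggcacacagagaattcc
MVD: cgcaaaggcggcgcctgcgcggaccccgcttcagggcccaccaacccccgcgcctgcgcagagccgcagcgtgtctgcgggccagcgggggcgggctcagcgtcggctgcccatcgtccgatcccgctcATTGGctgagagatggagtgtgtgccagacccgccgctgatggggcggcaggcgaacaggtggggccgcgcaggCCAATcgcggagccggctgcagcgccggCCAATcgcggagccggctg
INSIG1: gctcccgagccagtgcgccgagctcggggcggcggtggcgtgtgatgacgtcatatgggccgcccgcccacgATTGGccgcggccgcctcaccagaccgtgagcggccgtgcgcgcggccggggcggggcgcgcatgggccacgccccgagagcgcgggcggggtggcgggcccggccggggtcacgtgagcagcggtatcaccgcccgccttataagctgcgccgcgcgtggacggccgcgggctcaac
MVK: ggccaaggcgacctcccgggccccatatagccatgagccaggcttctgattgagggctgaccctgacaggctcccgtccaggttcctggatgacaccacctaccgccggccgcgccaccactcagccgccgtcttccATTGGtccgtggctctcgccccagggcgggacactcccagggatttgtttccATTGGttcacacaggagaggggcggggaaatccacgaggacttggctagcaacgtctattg
SREBF2: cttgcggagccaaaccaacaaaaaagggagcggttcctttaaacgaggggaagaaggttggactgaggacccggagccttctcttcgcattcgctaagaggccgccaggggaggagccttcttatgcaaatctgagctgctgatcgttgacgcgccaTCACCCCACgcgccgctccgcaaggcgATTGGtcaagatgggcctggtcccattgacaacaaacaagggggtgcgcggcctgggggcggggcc
Among these 5 windows, that of SREBF2 alone holds the sterol element letters, while all 5 hold a CCAAT box, with 3 copies each before EBP and MVD. Since windows were chosen for holding a motif, a CCAAT box in those without the sterol letters followed from the choice. A match is a run of letters only, and binding was not measured.

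The first comparison asked which of these genes differed among the 4 liver diets. EBP, MVD and INSIG1 passed the test across diets, with adjusted p of 0.00099, 0.030 and 0.048 (edgeR quasi-likelihood test, Benjamini-Hochberg over 13831 genes). These are 3 of 30 sterol genes (10%), where 3.66% of all genes tested passed. At an unadjusted p under 0.05 the count was 12 of 30, against 25.2% of all genes. DESeq2 added MVK and NPC1L1, and removal of each library's GC trend added ABCG5. Of the 3 calls, EBP alone held in all 8 alternatives planned for this test. With the share of read pairs on no gene as a term, MVD and INSIG1 were lost. INSIG1 was also lost with all 24 livers, and once libraries named PigLiv and PL were told apart in the fit. Without 1 liver at a time, EBP held each time and MVD was lost in 5 of 23 cases.

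EBP, the sterol isomerase that moves the double bond of zymosterol, was higher in the oil diets. Its level in control livers ran from 297 to 440 CPM with a median of 414, in PFA livers from 195 to 388 with a median of 319, and in OO livers from 490 to 857 with a median of 593. The 5 OO+PFA livers stood at 427, 428, 466.3, 474 and 514 CPM. Every OO liver was above every control and PFA liver, and the OO+PFA livers overlapped the upper end of the control range. EBP rose 1.60-fold in OO over control (log2 fold change 0.68 ± 0.15 SE, adjusted p = 0.015), and its difference in OO+PFA over control was 0.23 ± 0.16 (adjusted p = 0.42). The OO call was lost without OO_130 (adjusted p = 0.052) and with the share of read pairs on no gene as a term (log2 0.41, adjusted p = 0.34).

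MVD, mevalonate diphosphate decarboxylase, which yields isopentenyl diphosphate, had the largest fold change of the 30 genes in both oil diets. Control livers held 20.5 to 39.7 CPM (median 26.7), PFA livers 18.8 to 77.1 (median 33.5) and OO livers 18.1 to 228 (median 88.1). The OO+PFA livers held 79.2, 91.6, 115, 121 and 136 CPM, all above every control and PFA liver. The OO livers, named here by diet and pig number, split: OO_99, OO_102 and OO_130 held 136, 139 and 228 CPM, and OO_74, OO_88 and OO_97 held 18.1, 39.8 and 27.7. MVD rose 3.39-fold in OO (log2 fold change 1.76 ± 0.46, adjusted p = 0.039) and 3.75-fold in OO+PFA (1.91 ± 0.47, adjusted p = 0.027) over control. In OO the call was lost without any 1 of the 6 control pigs or of OO_99, OO_102 and OO_130, with adjusted p up to 0.14, and with these 2 diets fitted alone (adjusted p = 0.12), and in OO+PFA it was lost without control pig 71, 85, 100 or 110 or OOP_79 or OOP_126 (of OO+PFA), with adjusted p up to 0.066. After each library's GC trend was removed, MVD stood at 0.82 in OO (adjusted p = 0.014) and 0.79 in OO+PFA (adjusted p = 0.023).

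**Figure D1:**
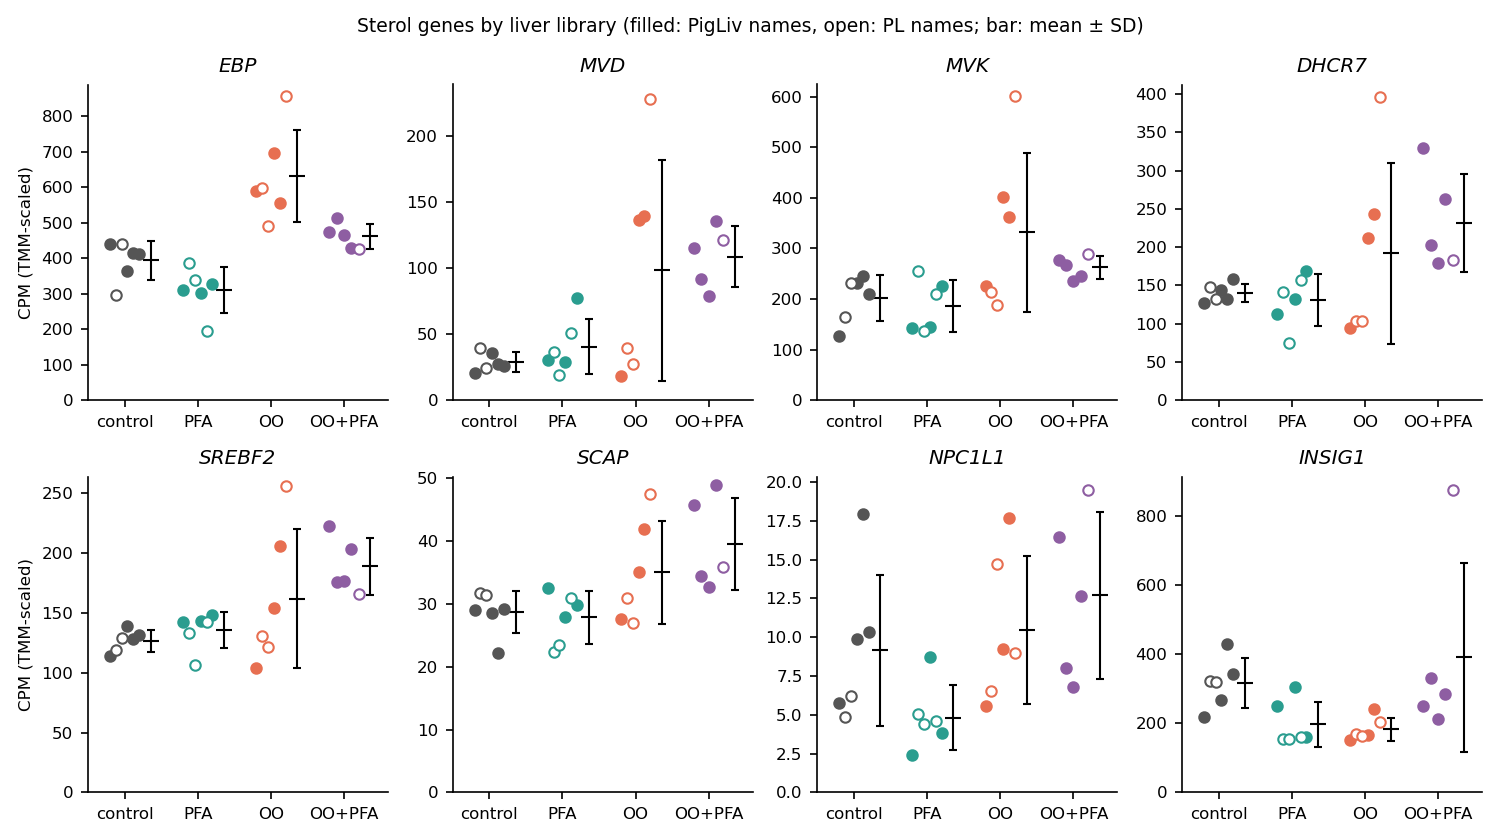
CPM (TMM-scaled, linear axes from 0) of 8 sterol genes in each fitted liver library by diet, with the mean ± SD of each diet beside the points; filled points have library names of the form PigLiv and open points PL. EBP in OO lies wholly above control, MVD in OO splits into 3 high and 3 low livers, and 1 OO+PFA liver (OOP_137) stands at 876 CPM for INSIG1.

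OO and OO+PFA were each set against control. Beside EBP and MVD in OO (2 of 30, against 2.71% of all genes called and 1.37% called higher) and MVD in OO+PFA (1 of 30, against 5.08% called and 4.09% called higher), no sterol gene passed the adjusted threshold in these 2 comparisons, which share the control livers. At an unadjusted p under 0.05, 10 of 30 differed in OO, of which 7 were higher and 3 lower, against 21.4% of all genes (12.1% higher and 9.32% lower), and 5 of 30 differed in OO+PFA, all higher, against 22.6% (14.6% higher and 7.93% lower). The median log2 fold change of the 30 was 0.19 in OO (0.06 over all genes) and 0.10 in OO+PFA (-0.01 over all genes). Of the 19 synthesis enzymes, 15 lay above 0 in OO, with a median of 0.29, and 10 in OO+PFA, with a median of 0.17, where 57.7% and 48.8% of all genes lay above 0. With OO+PFA and control fitted alone, 6 sterol genes passed, namely ABCA1 on the lower side and DHCR7, LSS, MVD, SCAP and SREBF2 on the higher, against 12.6% of all genes called in that fit. In the fit of 4 diets, removal of each library's GC trend took the OO+PFA difference of DHCR7 from 0.72 to -0.06 (adjusted p = 0.88), of LSS from 0.68 to -0.0043 (adjusted p = 0.99), of SCAP from 0.46 to -0.02 (adjusted p = 0.96) and of SREBF2 from 0.57 to -0.0096 (adjusted p = 0.98).

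**Figure D2:**
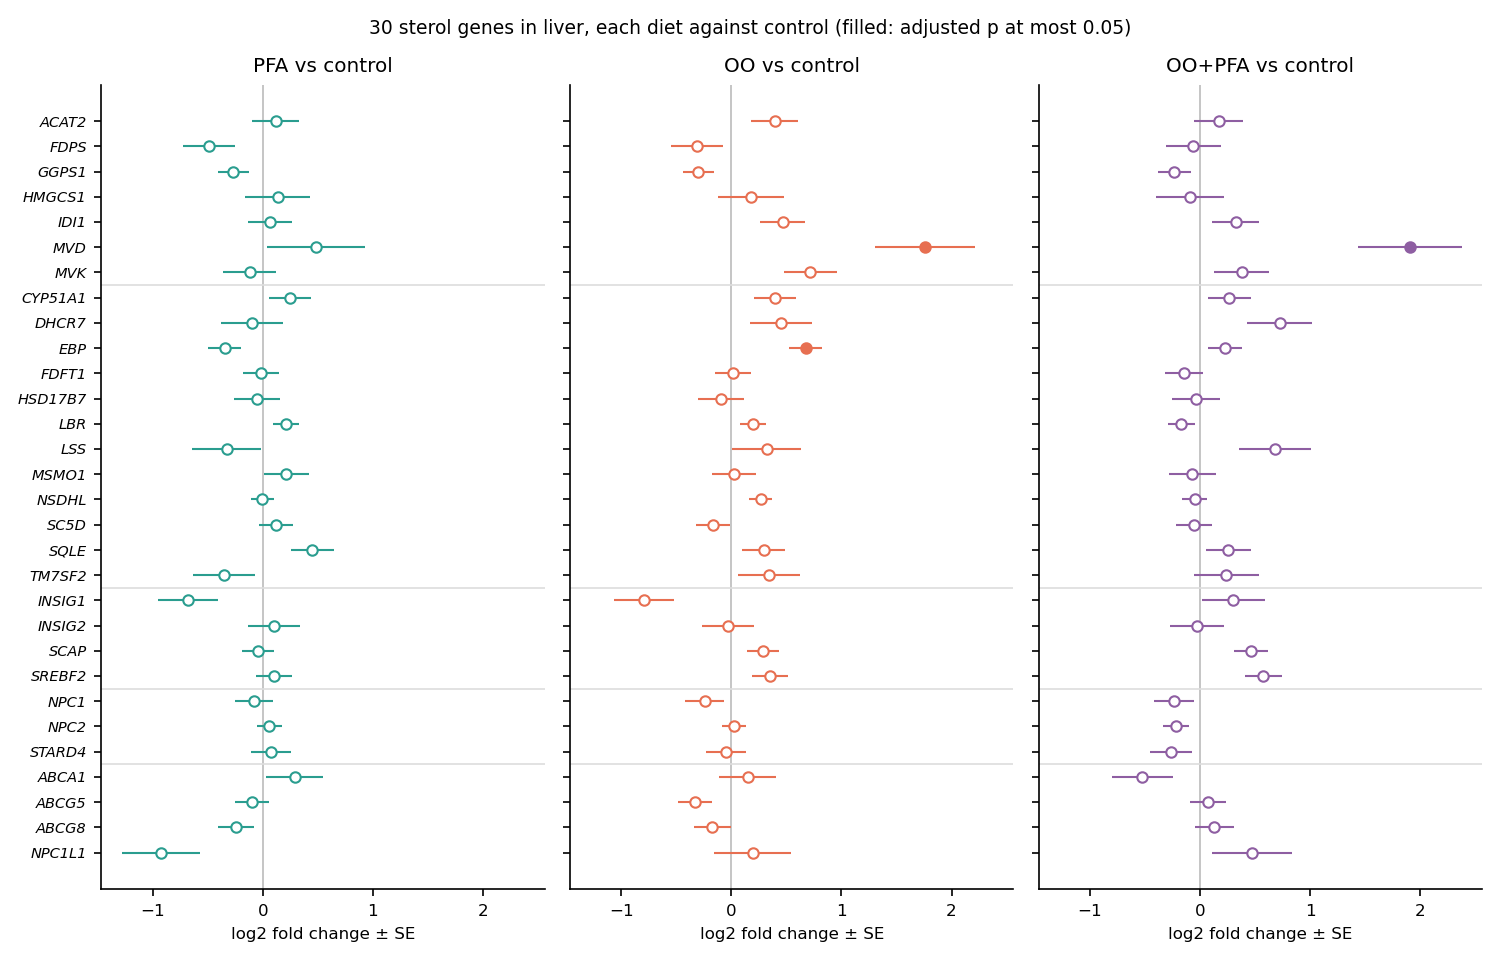
Log2 fold change ± SE of 30 sterol genes in the liver for PFA, OO and OO+PFA, each against control, grouped by role from the mevalonate enzymes at the top to the transporters at the bottom; filled points passed adjusted p of 0.05. The filled points are EBP and MVD in OO and MVD in OO+PFA, and INSIG1 lies below 0 in PFA and OO.

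The oil main effect compared the 11 livers of both oil diets with the 12 livers of both diets without oil. Of the 30 genes, 7 rose and 0 fell, against 8.95% of all genes called higher and 2.83% called lower (11.8% called in all). The mevalonate enzymes among them were MVD (3.02-fold, log2 1.59 ± 0.33, adjusted p = 0.0041) and MVK (1.52-fold, 0.61 ± 0.17, 0.027). The late enzymes were EBP (1.54-fold, 0.63 ± 0.11, 0.00078) and DHCR7 (1.56-fold, 0.64 ± 0.20, 0.044). The genes of sterol sensing were SCAP (1.31-fold, 0.39 ± 0.11, 0.021) and SREBF2 (1.33-fold, 0.41 ± 0.12, 0.028). The last was the absorber NPC1L1 (1.74-fold, 0.80 ± 0.25, 0.044). LSS, lanosterol synthase, IDI1, the isomerase of isopentenyl diphosphate, and TM7SF2, a sterol reductase, had an unadjusted p under 0.05 and were also on the higher side (log2 0.67, 0.36 and 0.47, adjusted p = 0.057, 0.11 and 0.14), which makes 10 of 30, all higher, against 27.8% of all genes (18.1% higher and 9.63% lower). The median over the 30 was 0.08, against 0.01 over all genes.

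MVK, mevalonate kinase, held 128 to 245 CPM in control livers (median 221), 136 to 255 in PFA (median 177) and 188 to 600.3 in OO (median 294), and 235, 245, 267, 276 and 288 in OO+PFA. In 6 of 11 oil livers it was above the highest liver without oil. DHCR7, which makes cholesterol from 7-dehydrocholesterol, held 127 to 158 CPM in control (median 138), 74.9 to 168 in PFA (median 136), 94.7 to 396 in OO (median 158) and 179.5, 183, 203, 262 and 329.8 in OO+PFA. The same 3 OO pigs as for MVD, OO_99, OO_102 and OO_130, were the high ones for MVK and DHCR7.

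SREBF2 held 113 to 139 CPM in control livers (median 128), 107 to 148 in PFA (median 142) and 104 to 256 in OO (median 142), and 165, 176, 177, 203 and 222 in OO+PFA. All 5 OO+PFA livers were above every liver without oil, and its fold change over control there was 1.49 (log2 0.58 ± 0.17, adjusted p = 0.051), and -0.0096 on the log2 scale (adjusted p = 0.98) after removal of the GC trend. SCAP held 22.3 to 31.8 CPM in control (median 29.1), 22.3 to 32.6 in PFA (median 28.9) and 26.9 to 47.6 in OO (median 33.0), and 32.6, 34.5, 35.9, 45.7 and 48.9 in OO+PFA. NPC1L1, at low levels in the pig liver, held 4.83 to 17.9 CPM in control (median 8.05), 2.40 to 8.70 in PFA (median 4.49), 5.59 to 17.7 in OO (median 9.12) and 6.79, 8.04, 12.7, 16.4 and 19.5 in OO+PFA. The PFA livers were its lowest group, and only 1 oil liver was above the highest liver without oil.

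The oil effect went with the GC content of the gene for part of these genes. Of the 28 genes with a GC value, the 6 above 60% GC (MVD at 68.2%, DHCR7, LSS, SREBF2, TM7SF2 and SCAP) had a median oil log2 fold change of 0.55, and the 22 at or below 60% had -0.05. After each library's GC trend was removed, these medians were 0.03 and 0.00. DHCR7 went from 0.64 to 0.04 (adjusted p = 0.88), SREBF2 from 0.42 to -0.04 (adjusted p = 0.86) and SCAP from 0.40 to 0.03 (adjusted p = 0.90), and all 3 calls were lost. MVD went from 1.60 to 0.69 and was still called (adjusted p = 0.0031), as were EBP at 0.59 (adjusted p = 0.00067), MVK at 0.50 (adjusted p = 0.028) and NPC1L1 at 0.76 (adjusted p = 0.048). The 3 OO pigs high for MVD had GC slopes of 0.297, 0.417 and 0.369 log2 units per 10% GC for OO_99, OO_102 and OO_130, and the 3 low ones had -0.347, -0.151 and -0.378 for OO_74, OO_88 and OO_97. What sets the slope of a library was not tested.

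**Figure D3:**
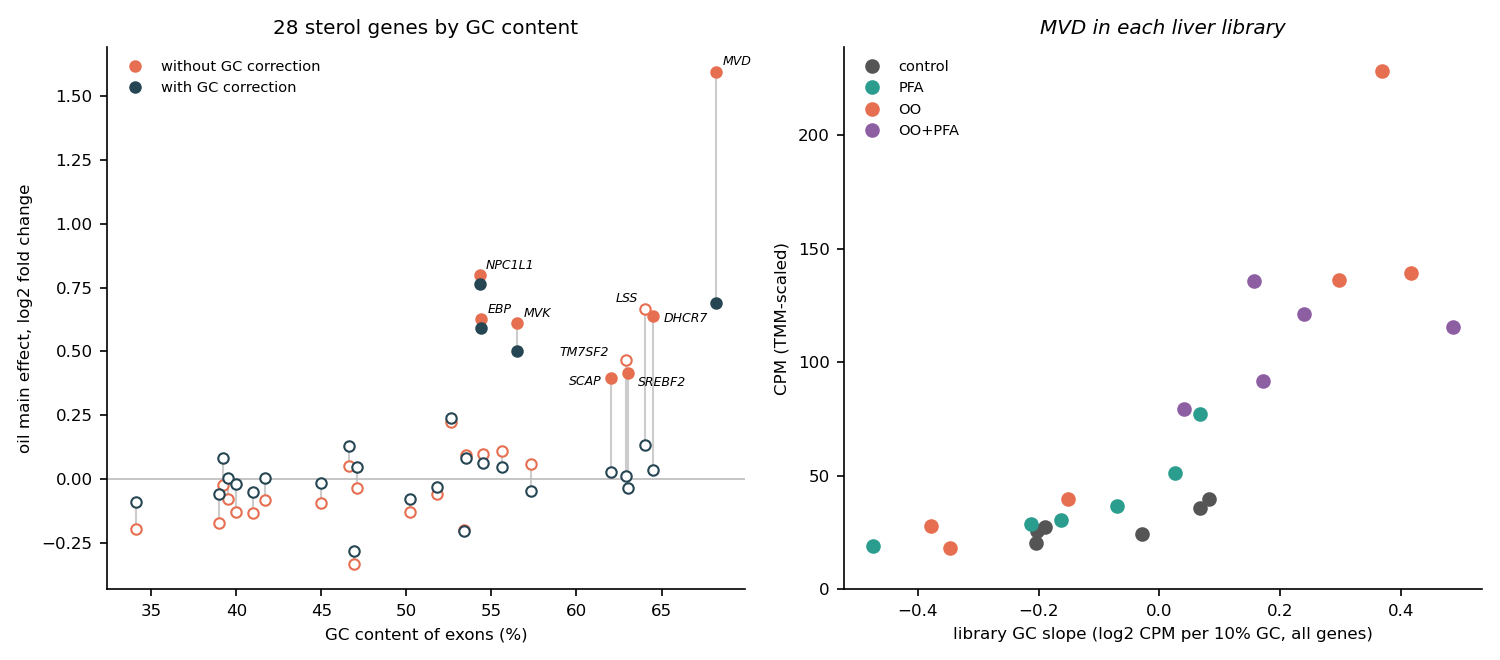
Left, oil main effect (log2 fold change) of 28 sterol genes against the GC content of their exons, without and with removal of each library's GC trend; filled points passed adjusted p of 0.05. Right, MVD CPM in each liver library against the GC slope of that library over all genes; the 6 genes above 60% GC drop toward 0 on the left except MVD at 0.69, and the 3 OO livers above 130 CPM on the right have slopes from 0.297 to 0.417.

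With the share of read pairs on no gene as a term, EBP, MVD and SCAP were still called for oil and NPC2 was called lower, while the calls of MVK, DHCR7, SREBF2 and NPC1L1 were lost. Among libraries named PigLiv alone, the oil effect was 1.54 for MVD, 0.65 for MVK and 0.60 for EBP, all called, and among libraries named PL, which include 1 OO+PFA liver, it was 1.65, 0.59 and 0.61 with none called. The form of name is not explained by the labels. Without 1 liver at a time, EBP, MVD and SCAP were called each time, with adjusted p up to 0.0023, 0.0095 and 0.046. The other 4 were lost in part: MVK without OO_102 or OO_130, SREBF2 without OO_102, OO_130 or OOP_79, DHCR7 in 15 of 23 cases and NPC1L1 in 16 of 23. Over these cases the number of sterol genes called ranged from 3, without OO_102 or OO_130, to 9, without OO_97, and it was 4 without OOP_79. The share of all genes called in each case is not given, so this range cannot be read as particular to sterol genes.

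INSIG1 differed across the diets with lower levels in PFA and in OO. Control livers held 219 to 430 CPM (median 321), PFA livers 155 to 306 (median 159) and OO livers 151 to 241 (median 169). The OO+PFA livers held 211, 252, 284 and 332 CPM and, in OOP_137, 876. Against control, INSIG1 had a log2 fold change of -0.68 ± 0.27 in PFA (adjusted p = 0.41), -0.79 ± 0.28 in OO (adjusted p = 0.10) and 0.30 ± 0.28 in OO+PFA. The OO difference passed in DESeq2 (adjusted p = 0.041), with these 2 diets fitted alone (0.024) and without OOP_137 (0.026). The interaction of oil and PFA for INSIG1 was 1.78 ± 0.40 (unadjusted p = 0.00017, adjusted p = 0.13), meaning that the step from OO to OO+PFA lay above the step from control to PFA, and DESeq2 called it (adjusted p = 0.0082). Without OOP_137 it was 1.24 (adjusted p = 0.30). It was 0.93 among PigLiv libraries (adjusted p = 1.0) and 3.35 among PL libraries (adjusted p = 0.0096), where OOP_137 is the single OO+PFA liver. The call across 4 diets held without OOP_137 (adjusted p = 0.045) and was lost in 15 of the 23 cases that leave out 1 liver, with adjusted p up to 0.073. INSIG2, which has the same function and does not respond to SREBP2 in the same way, had log2 fold changes of 0.10 in PFA, -0.03 in OO and -0.03 in OO+PFA.

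No sterol gene passed the test for interaction, for OO+PFA against OO or for PFA against control, and no gene of the genome did in edgeR, so the background is 0% in each. At an unadjusted p under 0.05 the counts were 8 of 30 for interaction, 5 above 0 and 3 below (13.6% of all genes, 7.87% above and 5.73% below), 7 of 30 for OO+PFA against OO, 2 higher and 5 lower (8.5% of all genes, 4.02% higher and 4.48% lower), and 4 of 30 for PFA against control, 1 higher and 3 lower (11% of all genes, 3.8% higher and 7.21% lower). DESeq2 called INSIG1 for interaction and no sterol gene in the other 2 comparisons. The share of all genes that DESeq2 called for interaction is not given here, so this call has no background beside it. The 4 transporters all had an unadjusted p under 0.05 for interaction: NPC1L1 (1.20 ± 0.51), ABCG8 (0.55 ± 0.24) and ABCG5 (0.50 ± 0.22) on the higher side and ABCA1 (-0.96 ± 0.38) on the lower, with adjusted p of 0.31, 0.33, 0.33 and 0.28. LBR, a sterol reductase of the nuclear membrane, had -0.57 ± 0.17 (adjusted p = 0.18) and NSDHL, a sterol dehydrogenase, -0.31 ± 0.15 (adjusted p = 0.37). Without OOP_137, the NPC1L1 interaction was 0.996 with an unadjusted p of 0.066 in edgeR, while ABCA1, ABCG5 and ABCG8 stayed under 0.05.

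ABCA1 held 31.5 to 46.5 CPM in control livers (median 37.6), 30.2 to 67.9 in PFA (median 45.8) and 17.8 to 65.9 in OO (median 44.5), and 19.6, 26.6, 26.8, 27.6 and 33.6 in OO+PFA. Its OO+PFA livers were the lowest group, and the OO range covered nearly all the rest. ABCG5 held 82.8 to 102.3 CPM in control (median 94.4), 67.3 to 117 in PFA (median 80.8), 50.9 to 97.6 in OO (median 77.7) and 84.4, 91.7, 91.8, 104.7 and 116 in OO+PFA. ABCG8 held 75.5 to 119, 65.3 to 98.97 and 63.9 to 129 CPM in control, PFA and OO, with medians of 90.1, 81.8 and 78.7, and 77.2, 89.3, 93.9, 129 and 133 in OO+PFA. The annotated end of ABCG5 overlaps a neighbouring gene, DYNC2LI1, by 795 bases, and with an unstated strand setting its reads there cannot be told apart. The 3 carriers STARD4, NPC1 and NPC2 lay below 0 in the oil main effect (-0.20, -0.20 and -0.13, smallest adjusted p = 0.31).

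LBR held 15.5 to 23.3 CPM in control (median 18.4), 17.4 to 25.7 in PFA (median 21.7), 16.5 to 23.6 in OO (median 22.1) and 15.0, 15.6, 16.5, 16.6 and 19.5 in OO+PFA. NSDHL held 152 to 201, 161 to 191 and 169 to 253 CPM in control, PFA and OO, with medians of 174, 173 and 201, and 149, 162, 165, 184 and 185 in OO+PFA. For both genes OO+PFA lay below OO at an unadjusted p under 0.05 (log2 -0.36 ± 0.13 and -0.32 ± 0.11, adjusted p = 0.46 and 0.45). EBP did too (-0.45 ± 0.16, adjusted p = 0.46). In PFA against control 14 of the 30 lay above 0 (53.8% of all genes), and for interaction 13 of 30 (45%). SQLE, squalene epoxidase, was the only gene on the higher side in PFA against control at an unadjusted p under 0.05 (0.45 ± 0.20, adjusted p = 0.42).

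HMGCS1, IDI1 and SQLE varied widely among control livers. HMGCS1, the synthase before the committed step, held 398 to 1545 CPM in control (median 871), 604 to 1296 in PFA (median 914), 579 to 1520 in OO (median 969) and 562, 683, 743, 999 and 1173 in OO+PFA. IDI1 held 441 to 980 CPM in control (median 757), 566 to 970 in PFA (median 728), 785 to 1399 in OO (median 821) and 735, 743, 819, 983 and 1178 in OO+PFA. SQLE held 81.7 to 225 CPM in control (median 156), 176 to 253 in PFA (median 198), 141 to 228 in OO (median 194) and 127, 169, 190.2, 202 and 233 in OO+PFA. All 4 diets overlapped for each of these 3 genes. The low values of HMGCS1 in control were 398 and 399 CPM in pigs 80 and 85, and the next lowest was 856. The same pair were the lowest for IDI1 (441 and 490 CPM, next 734) and SQLE (81.7 and 108 CPM, next 152). In 9 of the 19 synthesis enzymes, pigs 80 and 85 were the 2 lowest control livers. Pig 80 was also the highest control liver in 4 of the 19, and pig 85 in 3. These counts were not taken over all genes. Both pigs carry library names of the PL form, and they are the only control livers that do. Their shares of read pairs on no gene were 18.4% and 15.2%, against 11.2 to 12.4% in the other control livers. In OO+PFA, OOP_126 was highest in 12 of the 19 and in control, pig 100 in 9.

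In the ileum the comparison of PFA with control tested whether the additive moved these genes in the gut. None of 29 sterol genes passed the adjusted threshold, and none of all 14300 genes did, by edgeR or among the 29 by DESeq2 (background 0%). At an unadjusted p under 0.05 the count was 4 of 29, all higher in PFA, against 2.8% of all genes, 1.54% on the higher and 1.27% on the lower side. They were IDI1 (1.34-fold, log2 0.42 ± 0.10), NSDHL (1.22-fold, 0.29 ± 0.11), HMGCS1 (1.29-fold, 0.37 ± 0.14) and EBP (1.29-fold, 0.37 ± 0.16), each with adjusted p = 0.99. In the edgeR fit of genes with a GC value alone, the unadjusted p of EBP was 0.080, and 0.022 once each library's GC trend was removed. For HMGCS1 these were 0.040 and 0.0505.

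IDI1 held 59.5, 62.4, 62.7, 65.7 and 68.2 CPM in control ileum and 68.0, 85.8, 86.2, 93.1 and 93.5 in PFA ileum. PFA pig 107, at 68.0, was the single PFA pig within the control range. NSDHL held 26.3, 27.0, 28.7, 29.6 and 30.8 CPM in control and 29.9, 31.1, 36.2, 36.5 and 40.1 in PFA, and pig 107 was again the lowest. HMGCS1 held 211, 224, 250, 271 and 321 CPM in control and 273, 291, 320, 382 and 388 in PFA, so that all 5 PFA values were above the control mean and 2 above the highest control pig. EBP held 22.6, 24.9, 28.2, 31.9 and 36.5 CPM in control and 27.0, 38.1, 38.3, 38.3 and 44.8 in PFA.

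Of the 18 synthesis enzymes tested in the ileum, 15 lay above 0 with a median log2 fold change of 0.19, against 53.3% of all genes above 0 and a median of 0.02, while the 4 transporters all lay below 0 (median -0.27). INSIG1, the sensor that SREBP2 itself raises, was at 0.12, SREBF2 at -0.13 and SCAP at -0.18. Among the genes with a GC value, removal of each library's GC trend took SREBF2 from -0.17 to 0.05 and SCAP from -0.22 to 0.01, and the median of the 5 genes above 60% GC from -0.17 to 0.12, with none called either way. ABCA1 had the lowest value (-0.55 ± 0.30, adjusted p = 0.99), with 24.9, 31.6, 39.8, 40.3 and 64.1 CPM in control and 13.3, 25.4, 27.3, 30.2 and 40.8 in PFA. ABCG8 held 131, 137.2, 144, 163 and 222 CPM in control and 78.2, 106, 113, 145 and 170 in PFA. NPC1L1 held 374, 426, 455, 484 and 535 CPM in control and 320, 339, 420, 476 and 588 in PFA, and the groups overlapped. Enterocyte markers summed to 17205 to 22013 CPM in control ileum and 13647 to 19429 in PFA ileum; the part of this difference in the transporter values was not tested. PFA pig 134 had the highest GC slope of the ileum libraries, at 0.372. Among the PFA pigs it was the highest in 9 of the 19 synthesis enzymes and the lowest in 5. The 9 were MVD, DHCR7, MVK, LSS, TM7SF2, ACAT2, EBP, IDI1 and NSDHL. Pig 134 was also the highest PFA pig for SREBF2 and SCAP.

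**Figure D4:**
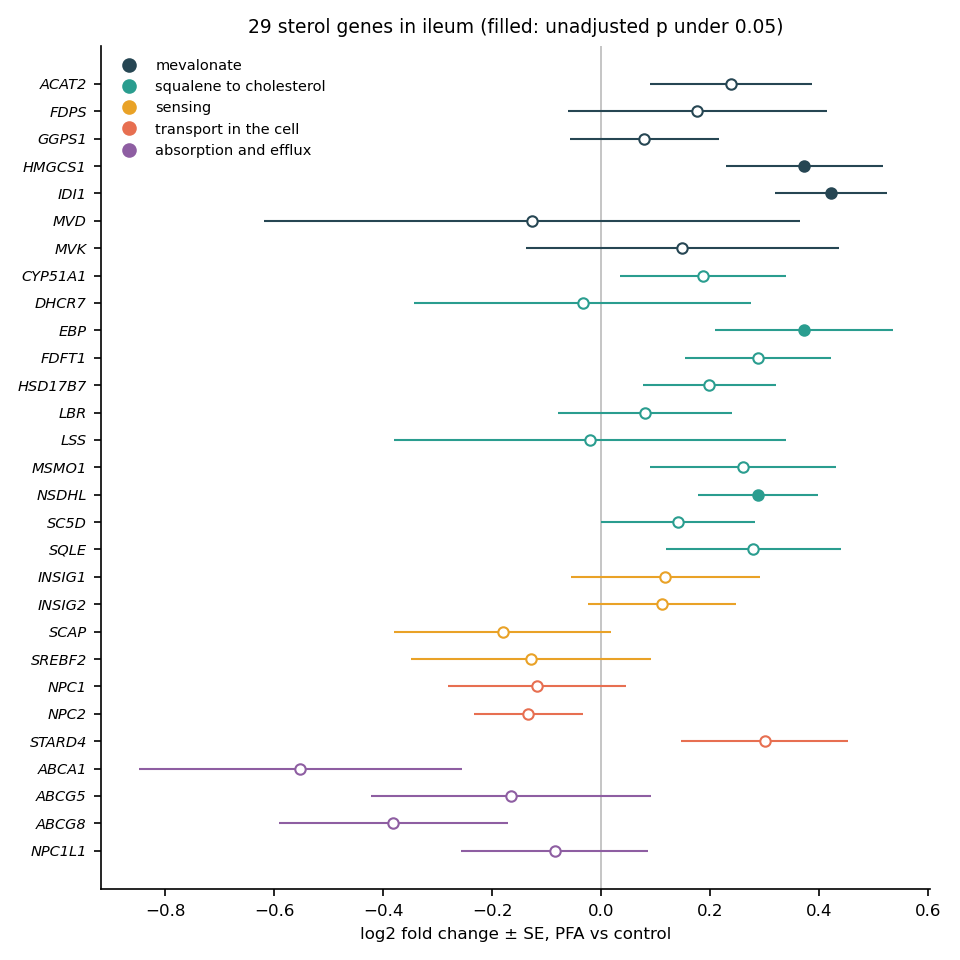
Log2 fold change ± SE of PFA against control in the ileum for 29 sterol genes in order of role, 5 pigs a group; filled points had an unadjusted p under 0.05 and none passed the adjusted threshold. Most synthesis enzymes lie right of 0 and the 4 transporters left of it.

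The last comparison set ileum against liver within the 5 control pigs that gave both tissues, with all 10 libraries on one TMM scale. Levels of most synthesis enzymes were far lower in the ileum and that of NPC1L1 far higher. Of the 30 genes, 27 passed the test, 25 lower and 2 higher in the ileum, against 69.4% of all genes called (33.7% lower and 35.8% higher), with a median log2 fold change of -2.72 against 0.03. TM7SF2 passed the filter on low counts through the liver alone, and over the other 29 genes 26 were called, 24 lower and 2 higher, with a median of -2.60. The scale matters here: on library totals with no scaling factor, the median of all genes moved to 1.13. On that scale 27 sterol genes were again called, with 19 lower and 8 higher. Of the 30, 7 genes changed sign (GGPS1, SREBF2, SCAP, NPC1, NPC2, ABCA1 and ABCG8). The shares of all genes called lower and higher on library totals are not given, so the 19 and 8 have no background beside them. The 19 genes called lower under both scales were 17 synthesis enzymes, TM7SF2 among them, and the pair INSIG1 and INSIG2, and the 2 called higher under both were NPC1L1 and LBR.

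NPC1L1 was 21.9-fold higher in ileum (log2 4.45 ± 0.33, adjusted p = 1.7e-07), at 253 to 369 CPM against 7.08 to 26.1 in the same pigs' livers. LBR was 2.13-fold higher (1.09 ± 0.16, adjusted p = 4.9e-05), at a mean of 55.7 against 26.1 CPM (SD 13.7 and 2.24, n = 5) with no overlap. Its counterpart TM7SF2, which reduces the same double bond of the sterol ring, held 53.0 to 135 CPM in liver and 0.181 to 0.507 in ileum, where it had 5 to 14 counts a library; since it entered the test through the liver, these levels are given as a description. ABCG5 (0.02 ± 0.15, adjusted p = 0.91), GGPS1, which makes geranylgeranyl diphosphate (-0.24 ± 0.17, adjusted p = 0.24), and ABCG8 (-0.38 ± 0.18, adjusted p = 0.073) did not pass the test on this scale, and on library totals all 3 were called higher in the ileum.

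Of the 29 genes that passed the filter in both tissues, the most liver-biased were MVK (-5.23 ± 0.29, 185 to 356 CPM in liver and 4.35 to 11.4 in ileum), EBP (-4.83 ± 0.19, 436 to 639 and 15.3 to 25.2) and IDI1 (-4.67 ± 0.22, 646 to 1423 and 41.0 to 46.5), each with adjusted p of 1.2e-08 or lower. HMGCS1 differed by -3.04 ± 0.31 and SQLE by -2.39 ± 0.24, and INSIG1 by -2.60 ± 0.21. In CPM per kilobase of exon on this common scale, for the 28 genes with a length, MSMO1, a sterol methyl oxidase, stood at 593 in the liver, EBP at 441, HMGCS1 at 274 and SC5D, a sterol desaturase, at 230, and NPC1L1 was lowest at 1.83. In the ileum of the same pigs MSMO1 stood at 48.0, NPC2 at 40.7, NPC1L1 at 40.0 and HMGCS1 at 33.4, and TM7SF2 was lowest at 0.180. Liver and ileum libraries carry different forms of name in the labels, which cannot be told apart from tissue. The paper states a lower floor of RNA integrity for liver than for ileum. A difference in RNA quality cannot be told apart from tissue either.

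**Figure D5:**
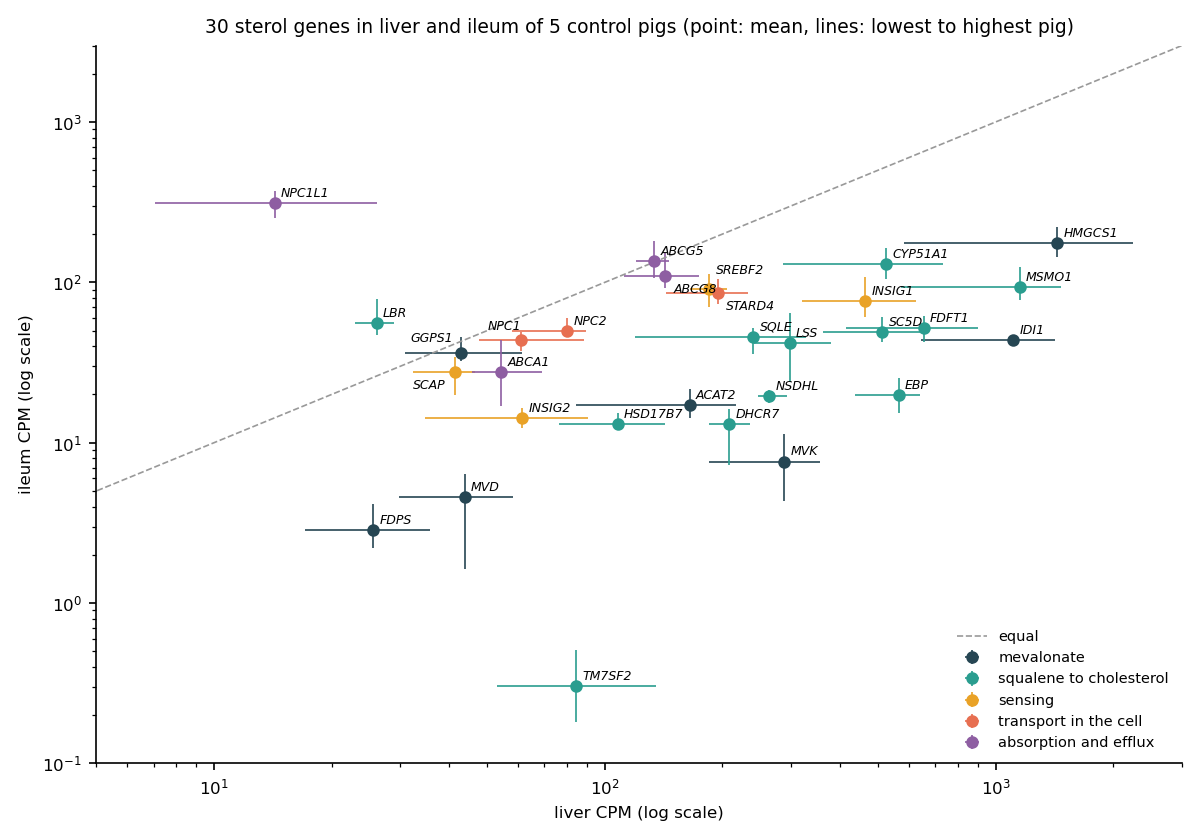
CPM of 30 sterol genes in ileum against liver of the same 5 control pigs (both axes logarithmic, one TMM scale); points are means, lines run from the lowest to the highest pig, and the dashed line marks equal levels. NPC1L1 and LBR lie above the dashed line, and TM7SF2 lies lowest at 0.302 CPM in the ileum.

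A second list holds 33 further genes of sterol handling, among them the esterifying enzymes, receptors, lysosomal lipase, LXR factors and sterol transfer proteins. Across the 4 liver diets 1 of the 33 was called (adjusted p = 0.016), against 3.66% of all genes. GRAMD1B carries cholesterol from the plasma membrane to the endoplasmic reticulum. It was the single one of the 33 (3.03%) called in OO+PFA against control, where 5.08% of all genes were called. It was also the single one (3.03%) in the oil main effect, against 11.8% of all genes. It held 5.97 to 8.61 CPM in control (median 7.64), 3.93 to 6.79 in PFA (median 5.54), 4.10 to 6.19 in OO (median 5.18) and 3.95 to 4.99 in OO+PFA (median 4.06). All OO+PFA livers were below every control liver. It fell by 0.79 ± 0.15 on the log2 scale in OO+PFA against control (adjusted p = 0.0089) and by 0.43 ± 0.11 in the oil main effect (adjusted p = 0.015), and these calls held in every alternative planned, with adjusted p up to 0.029 and 0.033. Among PL libraries alone, added after the data were seen and with a single OO+PFA liver, the log2 fold changes were -0.87 and -0.45, with adjusted p of 0.78 and 0.82. In the oil main effect 8 of the 33 had an unadjusted p under 0.05, 3 higher and 5 lower, against 27.8% of all genes (18.1% higher and 9.63% lower), among them SOAT2, which esterifies cholesterol (-0.29 ± 0.13, adjusted p = 0.15), SCARB1, the HDL receptor (-0.21 ± 0.07, adjusted p = 0.065), and NR1H2, an LXR factor (0.48 ± 0.20, adjusted p = 0.11). In the ileum under PFA, 2 of the 33 had an unadjusted p under 0.05, against 2.8% of all genes, and none was called, against 0%.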

How the data were processed

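RNA was sequenced from poly(A)-enriched stranded libraries of pig liver and ileum. Per the labels and the study's methods, the authors aligned reads with STAR 2.6.1d to Sscrofa11.1 and deposited raw read-pair counts per gene from HTSeq; the annotation release and strand option are not given in the sources used here. Here counts were tested with edgeR 4.0.16 (R 4.3.3; filterByExpr, TMM, quasi-likelihood test, two-sided, Benjamini-Hochberg over all genes kept: 13831 in liver, 14300 in ileum, 14375 between tissues), and called at adjusted p of at most 0.05. Errors are SE of log2 fold changes, and n is 6, 6, 6 and 5 livers and 5 and 5 ilea. The liver fit held all 4 diets. DESeq2 1.42.0 was an alternative, as were other scaling, filter, GC, library name and library sets; scripts were tested on simulated data. Rows of the counter that name no gene were left out of library sizes, at 6.83 to 21.4% of read pairs for reads on no gene.

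The genes and lists were chosen with earlier results of these data known. Full values are given for genes called in any diet comparison, for the 4 with the smallest p in each, and for INSIG1, SREBF2, NPC1L1, ABCA1, ABCG5 and ABCG8; between tissues, for the 4 most biased each way; of the second list, for those called; and promoters are taken from the first 6 by p across diets that hold a motif, of which 1 is not reported here. Genes named besides were chosen after their values were seen. Liver and ileum libraries of the same number come from the same pig; the correlation of their deviations from the tissue means over genes was -0.04 to 0.33 in the 5 control pigs. GC content was known for 28 of 30 genes. Gene positions are from RefSeq for Sscrofa11.1.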

Additional observations from a re-analysis of the deposited data

Results flagged for a closer look

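In 96 sets of 1 gene and 1 group of 5 or 6 libraries, 8 held a pig apart from the rest by Dixon's criterion, where chance gives about 4.8. INSIG1 stood at 876 CPM in OOP_137 (OO+PFA) and at 156 CPM in the ileum of control pig 100. In the ileum under PFA, pig 134 was high for MVD (14.9 CPM) and DHCR7 (34.0 CPM). In the liver, ABCG8 was high in OO_130 (129 CPM), LBR low in OO_102 (16.5 CPM), SREBF2 low in PFA pig 95 (107 CPM) and SCAP low in control pig 100 (22.3 CPM).

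For INSIG1, every PFA liver was below the control mean (PFA group mean 198 CPM) and every OO+PFA liver was above the OO mean (OO+PFA group mean 391 CPM). Neither step passed its own test (adjusted p = 0.41 for PFA against control and 0.28 for OO+PFA against OO in edgeR). The interaction test gave an adjusted p of 0.13 in edgeR, 0.30 without OOP_137, and 0.0082 in DESeq2. The share of all genes called for interaction in DESeq2 is not given here.

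The OO+PFA library of pig 77 was left out of the main comparisons and entered the setting with all 24 livers. On a scale set over all 24 livers, it lay above every control liver in 8 of the 30 genes, below every control liver in 16 and within their range in 6. The share of all genes outside the control range was not taken, so these counts cannot be read as particular to sterol genes. In this library the 10 highest genes held 48.3% of the read pairs on genes. The higher ones were MVD (304 CPM), NSDHL (237 CPM), DHCR7 (282 CPM), SCAP (37.4 CPM), MVK (242 CPM, against 241.9 in the highest control), LSS, FDPS and TM7SF2. Among the lower ones were HMGCS1 (299 CPM), MSMO1 (199 CPM), SC5D (133 CPM), INSIG1 (152 CPM), SQLE (59.8 CPM) and ABCA1 (14.0 CPM).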

How the results depend on the processing

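Counts are of sterol genes called. The share of all genes called under each setting is not given beside them. A change in a count therefore cannot be read as particular to sterol genes. Across the 4 liver diets (3), DESeq2 gave 5, a term for the share of pairs outside genes (the no-gene term) 1, and the PigLiv and PL libraries alone 1 each. In OO against control (2), all 24 livers gave 1, the no-gene term 0, PigLiv 1, PL 0 and library totals 1. In OO+PFA against control (1), DESeq2 gave 2, all 24 livers 2, the no-gene term 2, the genes with a GC value uncorrected 2, the 2 diets fitted alone 6, PigLiv 0, PL 0 and library totals 3. The oil main effect (7) gave 4 with the no-gene term, 4 with GC correction, 3 in PigLiv and 0 in PL, and SREBF2 turned from 0.41 to -0.035 with GC correction. Interaction (0) gave 1 in DESeq2 and 1 in PL, and OO+PFA against OO (0) gave 1 in PL; both PL calls are INSIG1, where OOP_137, the single OO+PFA liver, is assumed to vary like the other groups. The PigLiv, PL and library total settings were chosen after seeing the data, and where fewer libraries enter, the fits hold fewer samples; otherwise the cause was not tested. Leaving out 1 library at a time gave 1 to 5 across diets, 0 to 3 in OO, 0 to 3 in OO+PFA, 3 to 9 for oil, 26 to 28 between tissues, and 0 throughout in the other comparisons. With pig as a replicate block, 27 genes were called between tissues, as without it (27), and no call changed. The ileum counts stayed at 0 under every setting run. TM7SF2 in the ileum rests on 5 to 14 counts a library.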
